A study of Mus musculus with 20 samples.

Results

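The thrombospondin family and 3 regulators or markers of tendon are described here in the posterior eyecup of the mouse. The 8 genes were *Thbs1*, *Thbs2*, *Thbs3*, *Thbs4*, *Comp* (cartilage oligomeric matrix protein, the fifth thrombospondin), *Tnmd*, *Scx* and *Mkx*, taken by symbol from the 24411 genes of the deposited table. All 8 were in the table, and all 8 passed the filter on low values that left 18807 genes for testing. They were chosen with earlier results of these libraries known, and on their values in single libraries of wild-type mice on the deficient diet in particular. For this reason every contrast with that group is given as a description, with no p-value. *Thbs4* and *Comp* were also singled out by the study on these same samples, so their values here are not independent evidence.

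Thrombospondins are secreted glycoproteins of the extracellular matrix that bind cells, collagens and growth factors. Thrombospondin-1 and thrombospondin-2 assemble as trimers, restrain the growth of blood vessels and signal through the surface receptors CD36 and CD47, and thrombospondin-1 can activate latent TGF-beta. Thrombospondin-3, thrombospondin-4 and COMP assemble as pentamers and are best known from tendon, cartilage and muscle, where they bind collagen fibrils. Tenomodulin, the product of *Tnmd*, is a membrane protein of mature tendon cells, while scleraxis (*Scx*, a basic helix-loop-helix factor) and mohawk (*Mkx*, a homeobox factor) direct tendon formation. Around the eye, tendons of the extraocular muscles insert into the sclera, the fibrous coat that lies outside the choroid.

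The libraries came from mice labelled C57BL/6 (C57BL/6J for the Stra6-/- line in the study's methods) that were wild type (WT) or lacked *Stra6*, the membrane receptor through which the retinal pigment epithelium (RPE) takes up retinol. At weaning the mice were put for 12 weeks on a vitamin A sufficient diet (VAS, 4 IU/g) or a vitamin A deficient diet (VAD, 0 IU/g), after all had been raised on vitamin A rich chow. This gave 4 groups of 5 libraries, VAS WT, VAD WT, VAS Stra6-/- and VAD Stra6-/-, each library made, by the study's account, from the paired eyecups of 1 animal after dispase treatment and removal of muscle, connective tissue, the front of the eye and the neural retina. The Stra6-/- line was raised in the study's own colony and the WT line was bought, so the colony and the genotype cannot be told apart.

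Libraries held 13331903 to 21878614 reads, and the lowest count of any of the 8 genes was 61 reads, for *Mkx* in 1 VAD WT library. *Stra6* itself went against the labels of both VAD groups: its normalized value was 2414 to 2742 in VAS WT and 564 to 694 in VAS Stra6-/-, but 1973 to 2393 in the 5 libraries labelled VAD Stra6-/-, which are called by that label throughout. In the libraries labelled VAD WT it was 693, 697 and 669 in replicates 1, 3 and 5. Replicates 1 and 5 lay within the range of VAS Stra6-/- and replicate 3 just above it. In replicates 2 and 4 it was 1340 and 1529, so "VAD WT" below is likewise a label only. VAD WT replicates 2 and 4 stood apart from the other three libraries of their group: *Xist*, the RNA of the inactive X chromosome, had values of 10912 and 11767 there and 174 to 234 in the others, and the Y-linked *Ddx3y* had 75.2 and 80.5 against 1041 to 1133. In VAS WT *Xist* was at 7.69 to 38.4 and *Ddx3y* at 981 to 1193, while in VAS Stra6-/- they were at 15320 to 18052 and at 0 to 1.02, so sex and genotype cannot be told apart on the sufficient diet. Every library labelled VAD Stra6-/- held both, with *Xist* at 3570 to 4280 and *Ddx3y* at 741 to 970, a pair of values that neither VAS group showed, and whether each holds a single animal was not tested. These values do not overlap those of VAS Stra6-/-, so diet cannot be told apart from sex or source material between these 2 groups. The part of sex in the comparisons with VAD WT was not tested. Because these are bulk libraries, fewer cells of a type and less RNA per cell cannot be told apart. Of the summed values of a library, 10 markers of the corneal and surface epithelium made up 4.07% to 4.69% in VAS WT. They made up 4.91% to 5.07% in VAS Stra6-/- and 2.57% to 5.88% in VAD WT. In the libraries labelled VAD Stra6-/- they made up 0.168% to 0.213%. For 10 RPE markers the shares were 0.719% to 0.837%, 0.732% to 0.768%, 0.203% to 0.464% and 2.95% to 3.12%, in the same order. The levels below are those of such mixed libraries.

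Values below are normalized read counts (reads of a gene divided by the size factor of its library) unless they are said to be per kilobase of exon. A fold change is the limma difference of log2(value + 1) between groups of 5 libraries, with its standard error (SE), and an adjusted p is the Benjamini-Hochberg value over all 18807 genes, with 0.05 as the threshold for a call.

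In VAS WT eyecups the levels per kilobase ran from *Thbs1* down to *Mkx*. *Thbs1* was highest at 484 ± 32.3 per kb (SD, n = 5) and *Thbs4* followed at 331 ± 21.8 per kb. *Tnmd* at 224 ± 19.6 per kb, *Comp* at 191 ± 30.5 per kb and *Thbs2* at 143 ± 5.82 per kb came next, and each overlapped its neighbour in the order. *Scx* lay lower at 72.2 ± 9.90 per kb, and *Thbs3* at 32.9 ± 5.38 per kb and *Mkx* at 25.3 ± 3.62 per kb overlapped each other. In the libraries labelled VAD Stra6-/- the order of the leading genes was another: *Thbs4* came first at 3602 ± 119 per kb, before *Thbs1* at 3093 ± 134 per kb, *Tnmd* at 2800 ± 66.5 per kb and *Comp* at 2250 ± 126 per kb, with no overlap among these neighbours. *Thbs2* was at 543 ± 36.4 per kb there, *Scx* at 151 ± 24.4 per kb and *Mkx* at 143 ± 7.54 per kb overlapped, and *Thbs3* was lowest at 56.7 ± 10.5 per kb.

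**Figure D1:**
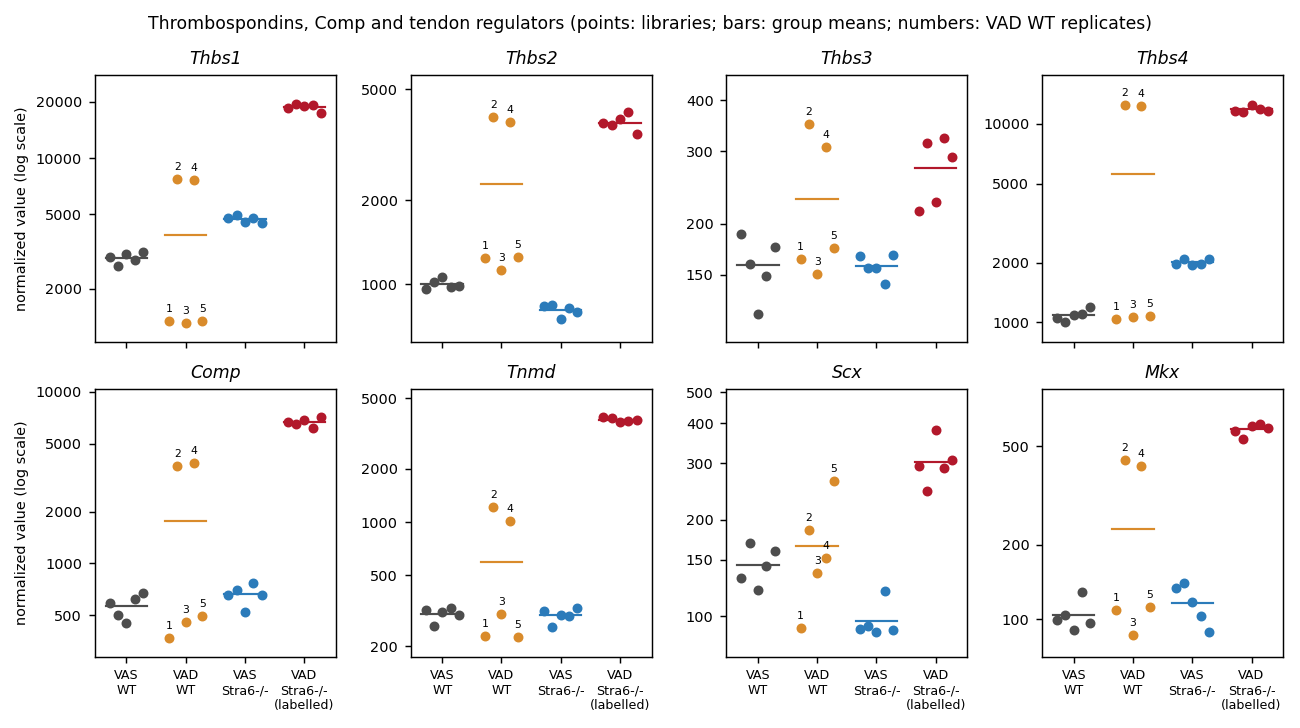
Normalized value (vertical axis, log scale) of each of the 8 genes in all 20 libraries, by group; each point is a library, each bar a group mean, and the small numbers mark the VAD WT replicates. VAD WT replicates 2 and 4 sit far above replicates 1, 3 and 5 for *Thbs1*, *Thbs2*, *Thbs4*, *Comp*, *Tnmd* and *Mkx* and also for *Thbs3*, but not for *Scx*, in which replicate 5 is highest at 265.

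*Thbs1* (ENSMUSG00000040152.8, chr2:118111876-118127133, plus strand, GRCm38) had values of 2969.7, 2661, 3060.0, 2839.9 and 3165 in VAS WT replicates 1 to 5. VAS Stra6-/- libraries had 4767, 4987, 4577, 4792 and 4503, so all 5 lay above all VAS WT libraries. The libraries labelled VAD Stra6-/- had 18488, 19609.9, 19019, 19279 and 17521, all above every other library. VAD WT split: replicates 1, 3 and 5 had 1342, 1319.5 and 1352, below every VAS WT library, and replicates 2 and 4 had 7765 and 7652, above every VAS WT and VAS Stra6-/- library. The log2 fold change was 1.99 (SE 0.39, limma adjusted p = 1.75e-04) for the libraries labelled VAD Stra6-/- against VAS Stra6-/-, a ratio of group means of 3.98. For VAS Stra6-/- against VAS WT it was 0.69 (SE 0.39, limma adjusted p = 0.216). That SE carries the split of VAD WT, because the fit shares 1 estimate of spread over all 4 groups. With only the VAS WT and VAS Stra6-/- libraries in the fit the SE was 0.048 and the limma adjusted p was 1.81e-06, and over all alternatives the adjusted p ran from 2.04e-10 to 0.313. An exon stretch of 208 bases (3.43% of the gene's exons) is shared with a noncoding gene on the opposite strand, *Gm29233*.

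*Thbs2* (ENSMUSG00000023885.9, chr17:14665500-14694235, minus strand), the other trimeric thrombospondin, lay lower in Stra6-/- than in WT libraries on the sufficient diet. VAS WT libraries had 960.1, 1019, 1062, 974 and 988, and VAS Stra6-/- libraries had 832, 843, 750.4, 821 and 792. All VAS Stra6-/- libraries thus lay below all VAS WT libraries. The log2 fold change was -0.31 (SE 0.27, limma adjusted p = 0.436) with all 20 libraries and had an SE of 0.042 (limma adjusted p = 1.76e-04) with only these 2 groups; over all alternatives the adjusted p ran from 6.27e-05 to 0.550. The libraries labelled VAD Stra6-/- had 3775, 3716, 3904, 4155 and 3459, a log2 fold change of 2.23 against VAS Stra6-/- (SE 0.27, limma adjusted p = 3.08e-07). In VAD WT, replicates 2 and 4 reached 3986 and 3810.4, within the range of the libraries labelled VAD Stra6-/-, and replicates 1, 3 and 5 had 1241, 1124 and 1248, still above every VAS WT library.

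*Thbs3* (ENSMUSG00000028047.11, chr3:89215180-89226837, plus strand), a pentameric member, had the lowest level per kilobase of the thrombospondins in both VAS groups and in the libraries labelled VAD Stra6-/-. It ran from 121 to 188 (median 159.5) in VAS WT and from 143 to 168 (median 156) in VAS Stra6-/-, and these groups overlapped with a log2 fold change of 0.01 (SE 0.21, limma adjusted p = 0.996). The libraries labelled VAD Stra6-/- had 215, 315, 225, 324 and 290.0, all above VAS Stra6-/-, with a log2 fold change of 0.77 (SE 0.21, limma adjusted p = 0.00361). This was the smallest rise among the 8 genes in that comparison. VAD WT replicates 2 and 4 had 350.2 and 307 and the others 150.4 to 174. A stretch of 318 bases (6.59%) of its exons lies on the opposite strand of exons of *Mtx1*, a mitochondrial outer membrane protein gene, and whether the counting used strand is not given in the sources used here.

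*Thbs4* (ENSMUSG00000021702.7, chr13:92751590-92794818, minus strand), a thrombospondin of tendon and muscle, showed the widest split within VAD WT. Replicates 2 and 4 had 12507 and 12257 and replicates 1, 3 and 5 had 1042, 1066 and 1074. The former were 11.5 and 11.2 times the VAS WT mean, and the latter 0.956 to 0.985 times that mean. VAS WT libraries had 1056, 1002, 1092, 1099 and 1198, and VAS Stra6-/- libraries had 1969.6, 2074, 1954, 1975 and 2094, all above. The log2 fold change between these 2 groups was 0.89, with an SE of 0.54 (limma adjusted p = 0.256) over all 20 libraries and of 0.046 (limma adjusted p = 2.52e-07) with only these 2 groups; over all alternatives the adjusted p ran from 2.00e-12 to 0.345. Values of 11649.9, 11506, 12493, 11927 and 11657 were found in the libraries labelled VAD Stra6-/-, which VAD WT replicates 2 and 4 matched at 1.06 and 1.03 times their mean. Against VAS Stra6-/- the log2 fold change was 2.56 (SE 0.54, limma adjusted p = 4.13e-04).

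*Comp* (ENSMUSG00000031849.9, chr8:70373558-70382066, plus strand) encodes the pentameric protein that links collagen fibrils in cartilage and tendon. Its values were 588, 499.7, 448, 620 and 671 in VAS WT and 657, 701, 522, 771 and 653 in VAS Stra6-/-. These groups overlapped, with a log2 fold change of 0.23 (SE 0.49, limma adjusted p = 0.782). The libraries labelled VAD Stra6-/- had 6687, 6521, 6843, 6162 and 7168, all above, a log2 fold change of 3.34 against VAS Stra6-/- (SE 0.49, limma adjusted p = 5.11e-06) and a ratio of means of 10.1. VAD WT replicates 2 and 4 had 3688 and 3839, which was 6.52 and 6.79 times the VAS WT mean but only 0.552 and 0.575 times the mean of the libraries labelled VAD Stra6-/-. VAD WT replicates 1, 3 and 5 had 369, 455 and 491. For *Comp*, in contrast to *Thbs4*, no VAD WT library reached the lowest of the libraries labelled VAD Stra6-/-.

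*Tnmd* (ENSMUSG00000031250.8, chrX:133850980-133865577, plus strand) is the X-linked tenomodulin gene. Of the 8 genes it had the largest rise over VAS Stra6-/- in the libraries labelled VAD Stra6-/-. VAS WT libraries had 319, 259, 311, 327 and 299 and VAS Stra6-/- libraries had 316, 257, 299.9, 295 and 329, a log2 fold change of -0.02 (SE 0.34, limma adjusted p = 0.984). Values of 3902, 3854, 3682, 3728 and 3777 were found in the libraries labelled VAD Stra6-/-. This was a log2 fold change of 3.66 against VAS Stra6-/- (SE 0.34, limma adjusted p = 7.70e-09), a ratio of means of 12.7, and it lay at the 99.9th percentile of all genes tested. VAD WT replicates 2 and 4 had 1215 and 1014 and replicates 1, 3 and 5 had 228, 305 and 224. The pair stood above all VAS libraries of both genotypes, yet at 0.321 and 0.268 times the mean of the libraries labelled VAD Stra6-/-.

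*Scx* (ENSMUSG00000034161.8, chr15:76457452-76459458, plus strand), the transcription factor of tendon progenitors, did not follow the split of VAD WT. Its values there were 92.0, 185, 136, 152 and 265 in replicates 1 to 5, so replicates 2 and 4 lay among the others. VAS WT libraries had 132, 169, 121, 143 and 159.8 and VAS Stra6-/- libraries had 91.4, 93.3, 89.5, 119.9 and 90.9, all below VAS WT. The log2 fold change was -0.57 (SE 0.21, limma adjusted p = 0.0480) over all 20 libraries and had a limma adjusted p of 0.00453 with only these 2 groups. The call was lost without any 1 of 12 libraries (replicates 1, 2, 4 and 5 of VAS WT, 1, 2, 3 and 5 of VAS Stra6-/- and 1, 2, 4 and 5 of the libraries labelled VAD Stra6-/-), and over all alternatives the adjusted p ran from 0.00453 to 0.107. On the deficient diet, the libraries labelled VAD Stra6-/- had 295, 245, 381, 291 and 307, a log2 fold change of 1.63 against VAS Stra6-/- (SE 0.21, limma adjusted p = 9.39e-07). The single exon block of *Scx* lies within *Bop1*, a ribosome biogenesis gene on the opposite strand, and shares 0 exon bases with it.

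*Mkx* (ENSMUSG00000061013.6), the homeobox regulator of tendon collagen genes, followed the thrombospondins rather than *Scx* in VAD WT. Replicates 2 and 4 had 441 and 415 and replicates 1, 3 and 5 had 108, 86.5 and 112. VAS WT libraries had 99.2, 104, 90.5, 129 and 96.4 and VAS Stra6-/- libraries 134, 140.5, 117, 103 and 89.0, which overlapped (log2 fold change 0.16, SE 0.34, limma adjusted p = 0.783). With 578, 537, 604, 617 and 592, the libraries labelled VAD Stra6-/- lay all above VAS Stra6-/-, with a log2 fold change of 2.34 (SE 0.34, limma adjusted p = 5.96e-06).

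To show the sequence just upstream of genes that rose together in the libraries labelled VAD Stra6-/-, up to 250 bases before the RefSeq transcription start were read for *Thbs4* (chr13:92794819-92795068, minus strand), *Thbs2* (chr17:14694263-14694512, minus strand) and *Tnmd* (chrX:133850758-133850979, plus strand) in GRCm38.p6. The RefSeq promoter table held 4 of the 8 genes. *Thbs1*, *Comp*, *Scx* and *Mkx* had no entry. Each sequence is written 5′ to 3′ on the strand of its gene, and capitals mark a match to CANNTG (the E-box bound by basic helix-loop-helix factors, the class to which scleraxis belongs) or to TATAAA (the TATA box), on either strand.
Thbs4: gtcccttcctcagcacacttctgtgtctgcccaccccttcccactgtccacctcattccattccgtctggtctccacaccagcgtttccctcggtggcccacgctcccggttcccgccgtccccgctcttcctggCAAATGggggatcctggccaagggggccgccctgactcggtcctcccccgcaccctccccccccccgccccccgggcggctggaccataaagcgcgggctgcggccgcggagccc
Thbs2: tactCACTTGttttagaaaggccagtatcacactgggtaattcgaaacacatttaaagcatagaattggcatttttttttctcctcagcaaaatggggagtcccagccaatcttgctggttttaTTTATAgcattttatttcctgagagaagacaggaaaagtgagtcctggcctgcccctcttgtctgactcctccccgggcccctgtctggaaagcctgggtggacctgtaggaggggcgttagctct
Tnmd: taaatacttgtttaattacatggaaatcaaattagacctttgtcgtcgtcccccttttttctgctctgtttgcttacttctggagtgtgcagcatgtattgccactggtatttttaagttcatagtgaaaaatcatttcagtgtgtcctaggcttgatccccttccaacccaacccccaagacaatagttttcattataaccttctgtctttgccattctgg

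Upstream of *Thbs4* there was 1 CANNTG match, starting at -115 from the transcription start, and 3 matches to GGGCGG, the GC box, and 70.8% of the bases were G or C. *Thbs2* had 1 CANNTG match at -246, 1 TATAAA match at -126 and 2 CCAAT matches, with 46.8% G or C. In the window of *Tnmd*, 39.2% G or C over its 222 bases outside the gene model, none of the 6 motifs searched was present, counted on the whole 250 bases. *Thbs3* had 1 CANNTG match, which also read CATCTG, 1 GGGCGG match and 1 CCAAT match. Of the 32851 RefSeq promoters, 66.2% held CANNTG, 14.4% its subset CATCTG, 12.4% TATAAA, 32.7% GGGCGG, 33.8% CCAAT and 6.75% TGANTCA, the site of AP-1. These matches are letters in a window and say nothing of binding.

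The libraries labelled VAD Stra6-/- were compared with VAS Stra6-/-, which by label asks what the deficient diet did on this genotype. All 8 genes were called higher in the libraries labelled VAD Stra6-/-, where 24.4% of all genes tested were called higher. Their median log2 fold change was 2.28, against -0.07 over all genes tested. The rise was above 2 on the log2 scale for *Tnmd*, *Comp*, *Thbs4*, *Mkx* and *Thbs2*, 5 of the 8, compared with 1.67% of all genes. In none of the 8 did the groups overlap, but the share of all genes without overlap is not given, so nothing is read from this. All 8 calls held under each of the 29 alternatives, among them leaving out VAD WT replicates 2 and 4 and fitting only these 2 groups. The comparison rests on the 5 libraries whose *Stra6* level went against their label, and no value for it can be had without them. *Xist* and *Ddx3y* also differed between these 2 groups with no overlap, and that difference and the diet cannot be told apart.

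**Figure D2:**
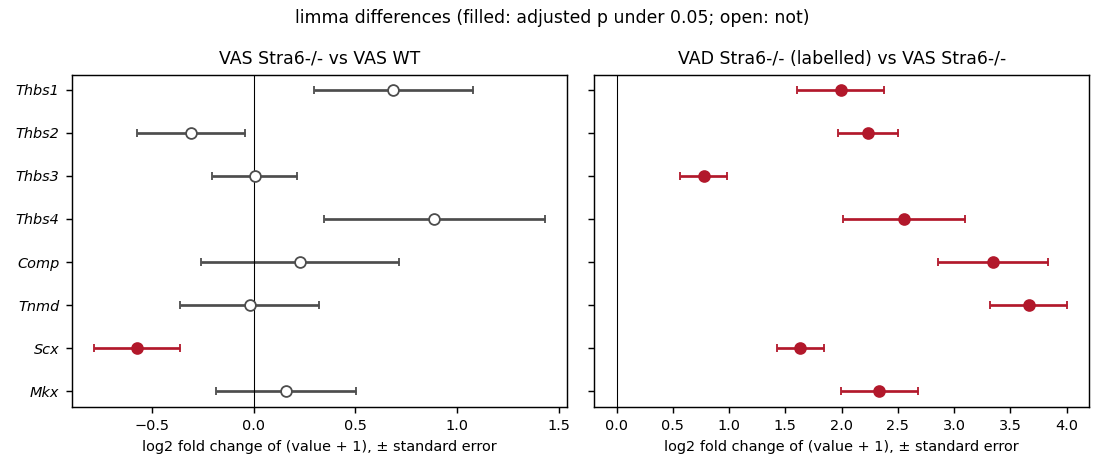
Difference of log2(value + 1) between groups (points) with its standard error (bars) for the 8 genes, for VAS Stra6-/- against VAS WT on the left and for the libraries labelled VAD Stra6-/- against VAS Stra6-/- on the right, from limma over 20 libraries; filled points have an adjusted p under 0.05. On the left *Scx* alone is filled, at -0.57, and on the right all 8 are filled, from 0.77 for *Thbs3* to 3.66 for *Tnmd*.

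On the sufficient diet, the comparison of the genotypes was made to see what loss of *Stra6* does, but here the VAS WT libraries showed *Ddx3y* and the VAS Stra6-/- libraries *Xist*, and the 2 differences cannot be told apart. None of the 8 genes was called higher over all 20 libraries, where 15.9% of all genes were, and 1, *Scx*, was called lower, where 10.8% were. *Thbs1* and *Thbs4* lay above and *Thbs2* and *Scx* below VAS WT in every library, and the remaining 4 overlapped. The share of all genes that lay apart in this way is not given, so nothing is read from it. With only the VAS WT and VAS Stra6-/- libraries in the fit, all 4 genes that lay apart were called. *Thbs1* and *Thbs4* were higher (24.1% of all genes) and *Thbs2* and *Scx* lower (19.5% of all genes). The shares of the 8 genes called are thus near the background in this comparison. Skeletal muscle markers moved with it: 11 of 12 were called higher, with a median log2 fold change of 1.36, and their summed value was 35353 to 39886 in VAS Stra6-/- and 13902 to 16990 in VAS WT. *Myh13*, a myosin heavy chain of extraocular muscle and one of the 12, was low throughout. Its group means were 3.59 in VAS WT, 5.08 in VAS Stra6-/-, 0.884 in the libraries labelled VAD Stra6-/- and 0 in VAD WT. The other heavy chains on the list, *Myh1*, *Myh2* and *Myh4*, had means of 626, 189 and 2044 in VAS WT. In VAS Stra6-/- they had 1831, 860 and 4868. Fibroblast markers gave 17170 to 17907 in VAS Stra6-/- and 16161 to 17105 in VAS WT. The part of muscle in the levels of *Thbs1* and *Thbs4* was not tested.

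Between the libraries labelled WT, the diets can only be described, since the 8 genes were chosen on VAD WT values. Nothing is read from the counts of calls or of overlaps in this paragraph. For overlaps, the share of all genes is not given. Against VAS WT, the log2 fold changes were 1.38 for *Thbs4*, 0.94 for *Thbs2*, 0.88 for *Comp*, 0.81 for *Mkx*, 0.58 for *Tnmd*, 0.46 for *Thbs3*, 0.12 for *Scx* and -0.12 for *Thbs1*. One gene, *Thbs2*, passed the call for higher values, as did 3.29% of all genes, and it alone had no overlap between the groups. Without VAD WT replicates 2 and 4 the differences turned to -0.04 for *Thbs4*, -0.36 for *Comp*, -0.28 for *Tnmd* and -0.02 for *Mkx*. Under the same setting *Thbs1* went to -1.13, the largest of the 8 in size, and *Thbs2*, *Thbs3* and *Scx* stayed positive at 0.27, 0.05 and 0.05. The libraries labelled VAD Stra6-/- were above VAD WT by log2 fold changes of 3.06 for *Tnmd*, 2.80 for *Thbs1*, 2.69 for *Comp*, 2.06 for *Thbs4*, 1.69 for *Mkx*, 0.98 for *Thbs2*, 0.94 for *Scx* and 0.32 for *Thbs3*. Without VAD WT replicates 2 and 4 these were 3.92 for *Tnmd*, 3.81 for *Thbs1*, 3.93 for *Comp*, 3.48 for *Thbs4*, 2.51 for *Mkx*, 1.66 for *Thbs2*, 1.01 for *Scx* and 0.73 for *Thbs3*. With all 5 VAD WT libraries, 7 of the 8 passed the call, as did 26.2% of all genes, and 4 (*Thbs1*, *Comp*, *Tnmd* and *Mkx*) had no overlap between the groups. This comparison shares the VAD WT libraries with the one before it. It shares the libraries labelled VAD Stra6-/- with their comparison against VAS Stra6-/-.

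The make-up of the thrombospondin family, taken as each gene's share of the 5 per-kilobase values of a library is given by its range in each group, with no test. *Thbs1* made up 39.6% to 43.3% of the family in VAS WT and 42.5% to 45.3% in VAS Stra6-/-, but 30.7% to 33.9% in the libraries labelled VAD Stra6-/-. *Thbs4* made up 27.1% to 28.5% in VAS WT, 33.4% to 36.5% in VAS Stra6-/- and 36.7% to 38.6% in the libraries labelled VAD Stra6-/-, so these 3 groups did not overlap. Thus the thrombospondin with the most transcript per kilobase was *Thbs1* in both VAS groups and *Thbs4* in the libraries labelled VAD Stra6-/-. *Comp* took 13.0% to 17.7%, 10.6% to 14.5% and 21.8% to 25.7% in the same order. *Thbs2* took 10.9% to 13.3% in VAS WT, 6.44% to 6.75% in VAS Stra6-/- and 5.25% to 6.22% in the libraries labelled VAD Stra6-/-, the group in which its own value was highest among these 3. *Thbs3* took at most 3.30% in these 3 groups. In VAD WT replicates 2 and 4, *Thbs4* alone took 54.6% and 54.1%, a share seen in no other library, and in replicates 1, 3 and 5 it took 35.1% to 36.5%, beside 18.1% to 20.3% for *Thbs2*.

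**Figure D3:**
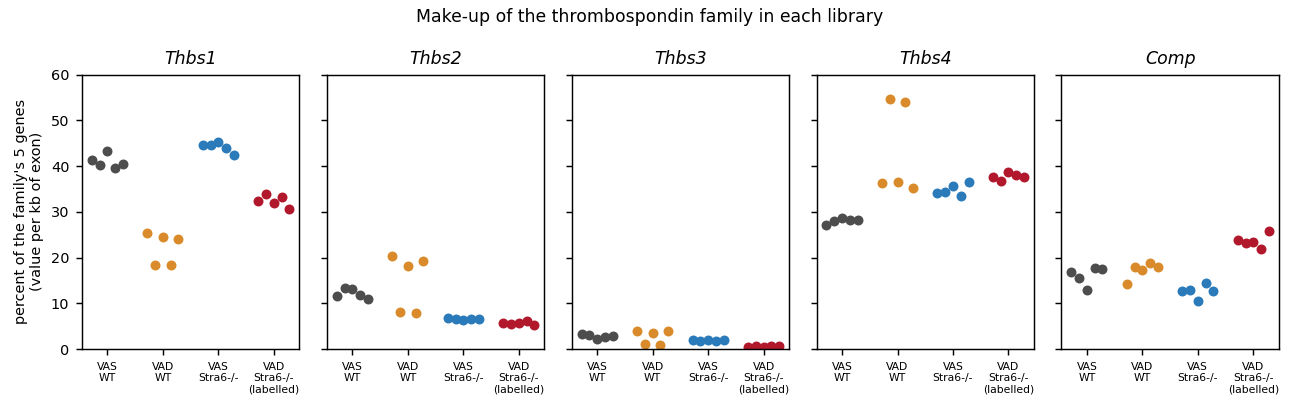
Share of each thrombospondin gene in the summed value per kilobase of exon of the 5 family genes (vertical axis, percent), in each of the 20 libraries (points) by group. *Thbs4* reaches 54.6% and 54.1% in VAD WT replicates 2 and 4, and *Thbs1* lies at 30.7% to 33.9% in the libraries labelled VAD Stra6-/-, below both VAS groups.

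Ratios between single genes gave the same contrast between VAD WT replicates 2 and 4 and the libraries labelled VAD Stra6-/-. *Thbs4* per kb was 3.06 and 2.88 times *Comp* per kb in those VAD WT libraries and 1.47 to 1.75 times in the libraries labelled VAD Stra6-/-. It was 2.97 and 2.96 times *Thbs1* per kb against 1.08 to 1.23 times, and 0.657 to 0.715 times in VAS WT. *Tnmd* per kb was 0.723 and 0.579 times *Comp* per kb against 1.16 to 1.33 times. By level, VAD WT replicates 2 and 4 were near the mean of the libraries labelled VAD Stra6-/- for *Thbs4* and *Thbs2* (1.00 to 1.06 times). For *Thbs3* they were at 1.28 and 1.12 times that mean. They lay below it for *Thbs1* (0.413 and 0.407 times), *Comp*, *Tnmd*, *Scx* and *Mkx*.

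The genes whose profile over the 20 libraries was nearest to that of each of the 8 were sought among 15544 others by the root mean square (RMS) difference of centred log2(value + 1). Nearest to *Thbs4* were *Comp* (RMS 0.376), *Nell2* (0.410) and *Tnc* (0.437), the last encoding tenascin-C, a matrix glycoprotein of tendon. Nearest to *Comp* were *Pdgfrl* (0.290), *Myoc* (0.318) and *Tnmd* (0.344), and nearest to *Tnmd* were *1500015O10Rik* (0.222), *Pdgfrl* (0.292) and *Omd* (0.334), the osteomodulin gene. *Thbs1* stood with *Timp3* (0.185), an inhibitor of metalloproteinases that the RPE secretes, *Zdhhc2* (0.214) and *Epdr1* (0.258). The values of *Timp3* lay between 13560 and 15527 in VAS WT, between 19047 and 20461 in VAS Stra6-/- and between 81068 and 93249 in the libraries labelled VAD Stra6-/-. *Thbs2* was nearest to *Col1a2* (0.146), a chain of type I collagen, then to *C1qtnf2* (0.218) and *Mmp2* (0.241). *Mkx* was nearest to *Lox* (0.208), the collagen crosslinking enzyme, *Serpinf1* (0.216) and *Sparc* (0.249). *Thbs3* was nearest to *Lama2* (0.190), *Flywch1* (0.195) and *Osbp2* (0.200), and *Scx* to *Snhg18* (0.255), *Pld4* (0.292) and *Ly86* (0.308). *Comp* ranked 1 of 15544 for *Thbs4* while *Scx* ranked 1618, and for *Thbs1* the closest of the other seven was *Mkx* at rank 259. These are descriptions over 20 libraries that share their groups and the split of VAD WT.

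Of 16 tendon matrix genes, 15 were called higher in the libraries labelled VAD Stra6-/-, where 24.4% of all genes were, and 0 lower, with a median log2 fold change of 1.504 against -0.07 over all genes. The largest was *Dcn*, the collagen-binding proteoglycan decorin, at 2.84 (SE 0.26, limma adjusted p = 5.36e-09), from 16374 ± 234 to 117274 ± 4307 (SD, n = 5 in each group). The smallest of those called was *Col5a1*, a chain of type V collagen, at 0.27 (SE 0.09, limma adjusted p = 0.0158), and *Col22a1*, a collagen of the junction of muscle and tendon, was the one not called, at -0.54 (limma adjusted p = 0.143). In VAS Stra6-/- against VAS WT, 0 of the 16 were called higher and 6 lower (10.8% of all genes), from *Kera* (keratocan, a proteoglycan of the cornea and tendon) at -1.47 to *Col3a1* at -0.31, with a median of -0.07 against 0.02 over all genes.

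The other tendon regulators did not move one way. Of 7, 2 were called higher in the libraries labelled VAD Stra6-/-, among them *Eya1* at 1.17, and 3 lower, *Egr1* at -1.11, *Tgif1* at -0.51 and *Eya2* at -0.41, compared with VAS Stra6-/- (limma, SE 0.08 to 0.41). Among all genes, 24.4% were called higher in that comparison, and 10004 of 18807 were called in either direction. On the sufficient diet *Eya2* was the one gene called, at 0.23 in VAS Stra6-/- against VAS WT, where 15.9% of all genes were called higher. *Egr1*, an immediate early factor that also drives tendon collagen genes, was at 2278 ± 113 in the libraries labelled VAD Stra6-/- and 4901 ± 238 in VAS Stra6-/- (SD, n = 5). *Egr2* and *Six2* were not called in either comparison.

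Of 14 genes of the TGF-beta pathway, which induces *Scx* in tendon cells, 7 were called higher and 4 lower against VAS Stra6-/- in the libraries labelled VAD Stra6-/-, with a median of 0.38. Among all genes, 24.4% were called higher there, and 10004 of 18807 were called in either direction. Among the ligands, *Tgfb3* rose by 2.20 on the log2 scale (SE 0.29, limma adjusted p = 1.50e-06), from 944 ± 63.7 to 4336 ± 168, and *Tgfb2* rose by 1.30, while *Tgfb1* fell by 0.39. Among the receptors, *Tgfbr3* and *Tgfbr2* rose and *Tgfbr1* fell by 0.60, and the lowest value was that of the mediator *Smad4*, which fell by 0.67. The latent binding proteins *Ltbp1*, *Ltbp2* and *Ltbp3* rose, but *Ltbp4* did not. Its mean was 3613 in VAS Stra6-/- and 3531 in the libraries labelled VAD Stra6-/-. On the sufficient diet 5 were called higher in VAS Stra6-/- than in VAS WT (15.9% of all genes), led by *Tgfbr1* at 0.94. Called lower were 2 (10.8% of all genes), *Ltbp2* at -0.65 and *Ltbp3* at -0.32.

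Receptors and partners of the thrombospondins include CD36, CD47 and several integrins. Of 11, 5 were called higher against VAS Stra6-/- in the libraries labelled VAD Stra6-/-, namely *Itgav* (the integrin alpha-v chain) at 1.65, *Cd36* at 1.64, *Itgb1* at 0.59, *Calr* at 0.49 and *Lrp1* at 0.36 (24.4% of all genes), and 2 lower, *Itga3* at -1.08 and *Atf6* at -0.32. The median was 0.19. *Cd36* had 290 ± 44.8 in VAS Stra6-/- and 898 ± 56.2 in the libraries labelled VAD Stra6-/- (limma adjusted p = 2.04e-05), whereas *Cd47* had 424 ± 22.8 and 468 ± 51.2 (limma adjusted p = 0.242). In VAS Stra6-/- against VAS WT, 6 were called higher, where 15.9% of all genes were, and 0 lower, from *Itga3* and *Stim1*, both at 1.02, to *Lrp1* at 0.38.

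Cartilage matrix genes, 14 of 15 listed being in the table, split in 2 directions. Of the 14, 6 were called higher against VAS Stra6-/- in the libraries labelled VAD Stra6-/-, where 24.4% of all genes were. In either direction, 10004 of 18807 genes were called there. The 6 were led by *Chad* (chondroadherin) at 3.59, *Cilp2* at 3.35 and *Matn3* at 3.27. Called lower were 2, *Col2a1* at -1.31 and *Col9a1* at -0.80. *Chad* rose from 756 ± 39.9 to 9119 ± 309, whereas *Col2a1*, the defining collagen of cartilage, was at 544 ± 44.8 and 221 ± 42.8 and *Acan*, the aggrecan gene, at 2.40 ± 1.33 and 11.1 ± 10.4 (SD, n = 5). *Matn1* was listed at 0 in every library of these groups and of VAD WT. On the sufficient diet 0 were called higher (15.9% of all genes) and 4 lower (10.8% of all genes) in VAS Stra6-/- than in VAS WT. The 4 were *Col9a3* and *Col2a1* at -0.98, *Col9a1* at -0.97 and *Matn4* at -0.83.

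**Figure D4:**
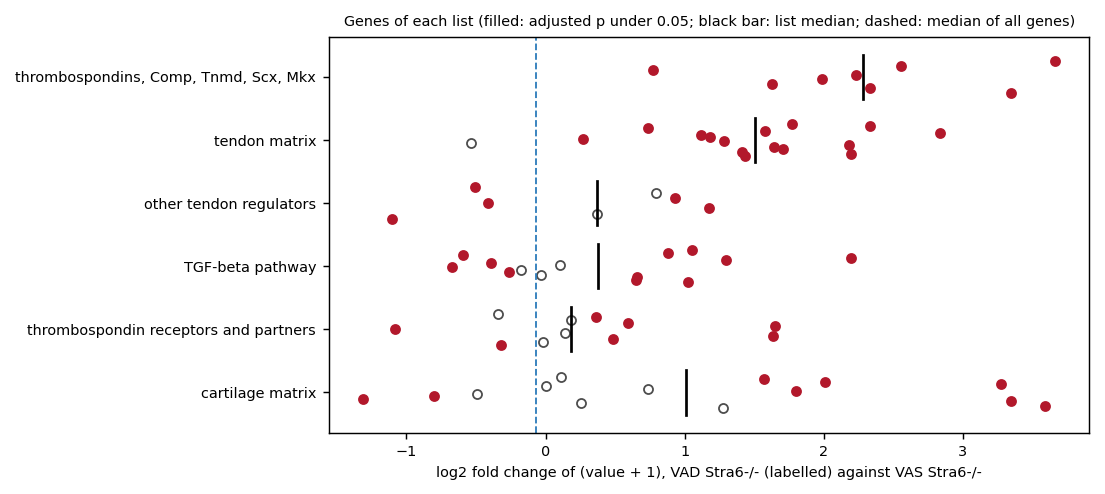
Log2 fold change of (value + 1) for the libraries labelled VAD Stra6-/- against VAS Stra6-/- (horizontal axis) of each gene of 6 lists; filled points have a limma adjusted p under 0.05, black bars are list medians and the dashed line is the median of all genes at -0.07. The 8 genes and 15 of the 16 tendon matrix genes lie to the right, and the other lists spread to both sides.

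Markers of other cell types changed in the comparison of the libraries labelled VAD Stra6-/- with VAS Stra6-/-. Among all genes, 24.4% were called higher there, and 10004 of 18807 were called in either direction. Of 12 markers of scleral and stromal fibroblasts, 11 were called higher and 1 lower against VAS Stra6-/- in the libraries labelled VAD Stra6-/-, with a median of 2.01, and their summed value was 56447 to 59359 against 17170 to 17907. Skeletal muscle markers had 0 called higher and 6 lower of 12, with a sum of 22496 to 27545 against 35353 to 39886. All 10 markers of the corneal and surface epithelium were called lower, with a median of -4.28, and all 8 macrophage markers higher, with a median of 1.43. RPE markers had 9 of 10 called higher, with a sum of 524046 to 570697 against 134213 to 141814, and rod photoreceptor markers had 5 of 10 called lower. Of the 8 markers each of endothelium and of smooth muscle and pericytes, 4 and 6 were called higher and 0 and 1 lower, and of 6 platelet markers 1 was called higher and 2 lower. The part of any of these cell types in the rise of the 8 genes was not tested.

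The markers also separated VAD WT replicates 2 and 4 from replicates 1, 3 and 5. As multiples of the VAS WT mean, the summed 8 genes were at 4.78 and 4.67 in the former and at 0.727 to 0.783 in the latter. Tendon matrix was at 3.19 and 3.26 against 1.09 to 1.15, fibroblast markers at 2.06 and 2.06 against 0.795 to 0.824, and rod markers at 2.09 and 2.10 against 0.805 to 0.832. Skeletal muscle markers were at 1.14 and 1.06 against 0.285 to 0.304, and corneal and surface epithelium markers at 0.565 and 0.560 against 1.47 to 1.51. Endothelium markers were at 1.59 and 1.65 against 0.613 to 0.652, macrophage markers at 0.769 and 0.745 against 0.573 to 0.628, and smooth muscle and pericyte markers at 1.07 and 1.09 against 0.712 to 0.753. RPE markers were low in all 5, at 0.576 and 0.564 against 0.297 to 0.318. Platelet markers were at 1.00 and 0.846 against 1.07 to 1.69. Of the 9 marker lists, 7 thus had higher sums, and surface epithelium and platelets lower sums, in replicates 2 and 4 than in the others of their group, and the part of tissue make-up in the split was not tested.

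**Figure D5:**
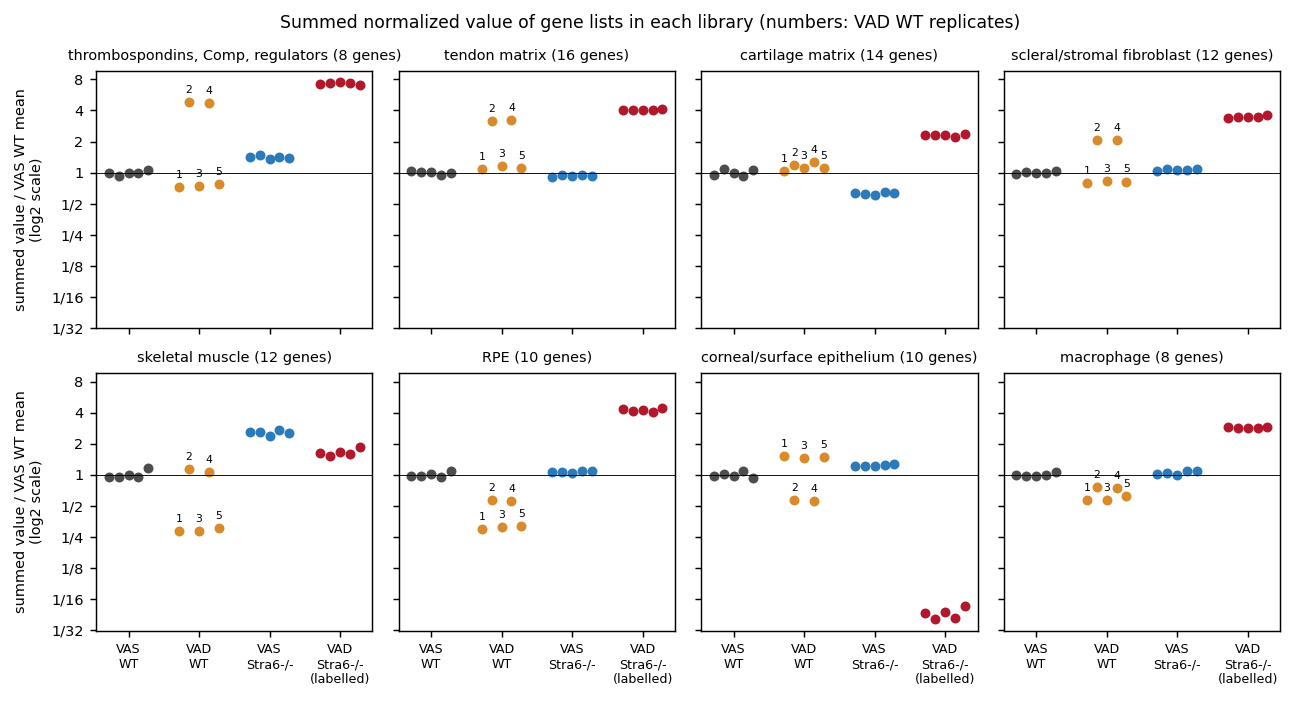
Summed normalized value of 8 gene lists in each library as a multiple of the VAS WT mean (vertical axis, log2 scale), by group; each point is a library and small numbers mark the VAD WT replicates. The summed 8 genes stand at 4.78 and 4.67 in VAD WT replicates 2 and 4, where fibroblast markers stand at 2.06 and 2.06 and epithelium markers at 0.565 and 0.560.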

How the data were processed

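Total RNA of eyecups was sequenced after poly(A) selection as paired reads. The authors aligned reads with STAR 2.5.3a to GRCm38/mm10, quantified genes with RSEM 1.2.30 and divided gene counts by 1 DESeq2 1.32.0 size factor per library, per the submitters' processing notes and the study's methods. The deposited signal is this normalized read count. In each of the 20 libraries, 100% of its values were whole reads within 0.01 after scaling. Count tests used 19 of them and left out replicate 1 of the libraries labelled VAD Stra6-/-. Strand use in counting is not given in the sources used here.

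Genes with fewer than 5 recovered reads in total were left out. limma 3.58.1 (R 4.3.3) was fitted to log2(value + 1) over 20 libraries in 4 groups, with no covariate, and p-values were adjusted by Benjamini-Hochberg over 18807 genes. The limma and edgeR 4.0.16 scripts were tested on simulated data, and the DESeq2 1.42.0 fit was not. Alternatives were pseudocounts of 0.5 and 4, no filter, TMM rescaling, edgeR and DESeq2 on recovered reads, 2 groups only, a replicate block, each library left out, and VAD WT replicates 2 and 4 left out. In the main fit the p-values rest on the spread between libraries within groups, pooled over all 4 groups with the split VAD WT among them. That spread may be technical.

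The 8 genes and the 15 lists were chosen with earlier results of these data known. The rule named the 8 genes, genes used to check labels, for each list the called genes with the largest and smallest change or all where 3 or fewer were called, and for each of the 8 genes the 3 genes nearest in profile with a mean value of at least 10. Marker lists are given as counts and sums, 1 gene that the rule named is not reported here, and other list genes were named after their values were seen. *Cnmd* was listed but had no entry in the table. Positions and exon lengths came from GENCODE vM21. Same-numbered libraries of different groups did not deviate together, as given in the closing section.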

Additional observations from a re-analysis of the deposited data

Results flagged for a closer look

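*Scx* in VAS Stra6-/- replicate 4 was 119.9, above the other four libraries of its group, which lay between 89.5 and 93.3. Its gap to the nearest of them exceeded the 95% critical value of Dixon's test for 5 samples, 0.710 of the group's range. It was 1 such library in 32 groups of 5 tested over the 8 genes, and chance gives about 1 in 20. Without that library the log2 fold change of *Scx* against VAS WT was -0.65 (limma adjusted p = 0.0388, and 0.00453 to 0.107 over all alternatives).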

How the results depend on the processing

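Over 29 alternatives, 20 of them leaving out 1 library each, the 8 genes stayed called higher against VAS Stra6-/- in the libraries labelled VAD Stra6-/- in every one, with *Thbs3* at 0.71 to 0.86 and *Tnmd* at 3.61 to 3.70 when 1 library was left out. Genes called there numbered 10004, and 9495 to 10408 with 1 library left out.

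For VAS Stra6-/- against VAS WT, 5010 genes were called over 20 libraries, 8208 with only these 2 groups and 7524 without VAD WT replicates 2 and 4 (4282 to 5575 with 1 library left out). Of the 8 genes, 1 was called over 20 libraries and 4 under each of those 2 settings, in which the fit holds fewer libraries, and 0 to 1 with 1 library left out. Library numbers shared by groups did not pair the libraries: over 30 same-numbered pairs the correlation of deviations from the group means ran from -0.069 to 0.065, none above 0.1. With the replicate block, 0 of the 8 genes were called in this comparison (*Scx*, limma adjusted p = 0.0537), and 4820 genes were called in all. No call among the 8 genes changed for the libraries labelled VAD Stra6-/- against VAS Stra6-/-.

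Some directions turned. *Thbs3* in VAS Stra6-/- against VAS WT, 0.01, was -0.019 with TMM, -0.033 with edgeR and -0.012 with DESeq2, and -0.088 to 0.072 with 1 library left out. *Tnmd*, -0.02, ran from -0.074 to 0.035. In VAD WT against VAS WT, *Thbs1*, -0.12, was 0.41 with edgeR and 0.41 with DESeq2 on recovered reads, and -0.50 to 0.14 with 1 library left out (0.13, 0.14 and 0.13 without replicates 1, 3 and 5), and *Scx*, 0.12, ran from -0.068 to 0.31. Without VAD WT replicates 2 and 4 that comparison gave -0.037 for *Thbs4*, -0.36 for *Comp*, -0.28 for *Tnmd* and -0.018 for *Mkx*, whose differences were 1.38, 0.88, 0.58 and 0.81 with all libraries. Causes of these changes were not tested. *Scx* and *Mkx* had as few as 78 and 61 reads in a library.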
